A study of Homo sapiens with 6 samples.

Results

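Autophagy delivers cytoplasmic cargo to the lysosome, and the 42 genes described here encode its machinery together with FYCO1, an adaptor that links autophagosomes to microtubule motors. The genes were found by symbol among 20474 annotated genes, and all 42 were present. FYCO1 was chosen by its measured fall in the same 6 libraries, whereas the others were listed for their function, with results of these libraries already known. They were compared in HCT116, an established human colorectal cancer cell line that the labels describe as wild type before treatment, 48 h after transfection, which delivered either siRNA to POU2F1 (siPOU2F1) or a non-targeting siRNA (sicontrol). POU2F1 encodes OCT1, a transcription factor that binds the octamer motif. Each group held 3 libraries of polyA RNA, and no label says whether these were separate cultures. The p-values therefore measure the spread between libraries, which may be technical. Both groups were transfected, and the series describes 1 siRNA reagent against POU2F1, whose sequence is not given in the sources used here, with no untransfected cells or rescue among the samples analysed here.

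Autophagy begins when the ULK1 kinase complex activates a lipid kinase complex built on BECN1 and PIK3C3, which makes phosphatidylinositol 3-phosphate (PI3P) on a cup-shaped membrane. PI3P effectors of the WIPI family, the lipid carriers ATG2A and ATG2B and the scramblases ATG9A and VMP1 let that membrane grow. Ubiquitin-like conjugation reactions then attach ATG8 proteins (the LC3 and GABARAP families) to lipid, receptors bind both cargo and ATG8 proteins, and the closed autophagosome is moved along microtubules and fused with the lysosome. In epithelial cancer cells the pathway recycles nutrients and removes damaged organelles.

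Levels are FPKM, that is fragments mapped to a gene, corrected for transcript length and for library size, as deposited. Of the 42 genes, 40 averaged 1 FPKM or more across the 6 libraries and were tested. The initiation kinase ULK2 (0.473 to 0.692 FPKM) and the ATG8 protein MAP1LC3A (0.146 to 0.275 FPKM) lay below that level in every library and were not tested. Fold changes are differences of log2(FPKM + 0.5), siPOU2F1 minus sicontrol, a scale that understates the change of low genes, and a gene is called at an adjusted p under 0.05 (limma, Benjamini-Hochberg over all 11831 tested genes).

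POU2F1 itself averaged 4.01 ± 0.359 FPKM under sicontrol and 1.76 ± 0.0984 FPKM under siPOU2F1 (SD, n = 3 each), with no overlap between the groups and an exact two-sided permutation p of 0.1, the smallest that 3 against 3 allow. The library siPOU2F1 replicate 3 stands apart from the other siPOU2F1 libraries. Across tested genes it correlated at r = 0.946 and r = 0.948 with siPOU2F1 replicates 1 and 2, and at r = 0.966 to r = 0.977 with the sicontrol libraries, and genes are not independent replicates. Read depth is unknown, since FPKM values carry no counts. Epithelial markers were present in every library (7 of 7 listed genes averaging 1 FPKM or more, summed level 2705 to 3627 FPKM in sicontrol and 3740 to 5166 FPKM in siPOU2F1). The defining markers PTPRC of leukocytes and DCN of fibroblasts were listed at 0 throughout. COL1A1 of the fibroblast list stood at 1.92 to 2.56 FPKM in sicontrol and 1.55 to 3.58 FPKM in siPOU2F1. LYZ of the leukocyte list stood at 0.649 to 0.987 and 0.903 to 1.06 FPKM. Summed leukocyte markers lay at 0.964 to 1.53 FPKM in sicontrol and 1.38 to 1.42 FPKM in siPOU2F1, summed fibroblast markers at 2.17 to 2.69 and 1.88 to 3.69 FPKM, and summed endothelial markers at 0.666 to 0.954 and 0.597 to 0.708 FPKM. The 4 listed neuronal genes summed to 25.4 to 33.9 FPKM in sicontrol and 49.1 to 53.3 FPKM in siPOU2F1, mostly TUBB3, and the part of these shifts in the results below was not tested. In bulk RNA, fewer cells that express a gene and less RNA per cell cannot be told apart.

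FYCO1 (ENSG00000163820; chromosome 3, 45917899 to 45995824, minus strand, GRCh38) carried the widest difference among these genes. It stood at 10.4, 10.4 and 11.3 FPKM in the sicontrol libraries (replicates 1 to 3, the order used throughout) and at 2.30, 2.30 and 2.73 FPKM in the siPOU2F1 libraries. All 3 siPOU2F1 libraries were low, replicate 3 included, and the closest pair of libraries across the groups was still separated by a wide gap. The mean went from 10.7 ± 0.565 to 2.44 ± 0.252 FPKM (SD, n = 3 each), which leaves 22.9% of the control level. On the log2 scale the difference was -1.93 with an SE of 0.13, the 11th most negative of all tested genes. Since FYCO1 was selected on this difference, the values are a description and carry no test. Without siPOU2F1 replicate 3 the difference was -1.998, and over fits that each left out 1 library it lay between -1.998 and -1.89.

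WIPI2 (ENSG00000157954; chromosome 7, 5190188 to 5233826, plus strand) was the 1 gene of this set called higher. It encodes the PI3P effector that recruits ATG16L1 and so brings the conjugation machinery to the growing membrane. Values were 27.5, 31.6 and 33.6 FPKM under sicontrol and 51.5, 54.3 and 49.8 FPKM under siPOU2F1. Every siPOU2F1 library exceeded every sicontrol library. The mean went up from 30.9 ± 3.09 to 51.9 ± 2.28 FPKM (SD, n = 3 each), 168% of the sicontrol mean. The log2 difference was 0.74 (SE 0.11, limma, adjusted p = 0.0347). The call was lost in 5 of the 6 fits that left out 1 library (adjusted p = 0.0954 without sicontrol replicate 3 and 0.142 to 0.196 without sicontrol replicate 1 or 2 or siPOU2F1 replicate 1 or 2), and it held without siPOU2F1 replicate 3 (0.00935). Few genes of any kind were called in those 5 fits. The fits without sicontrol replicates 1, 2 and 3 called 0, 5 and 9 genes, and those without siPOU2F1 replicate 1 or 2 called 0. With all 6 libraries 147 genes were called, and 2990 were called without siPOU2F1 replicate 3. Over the 6 fits that left out 1 library the log2 fold change of WIPI2 stayed between 0.66 and 0.80.

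**Figure D1:**
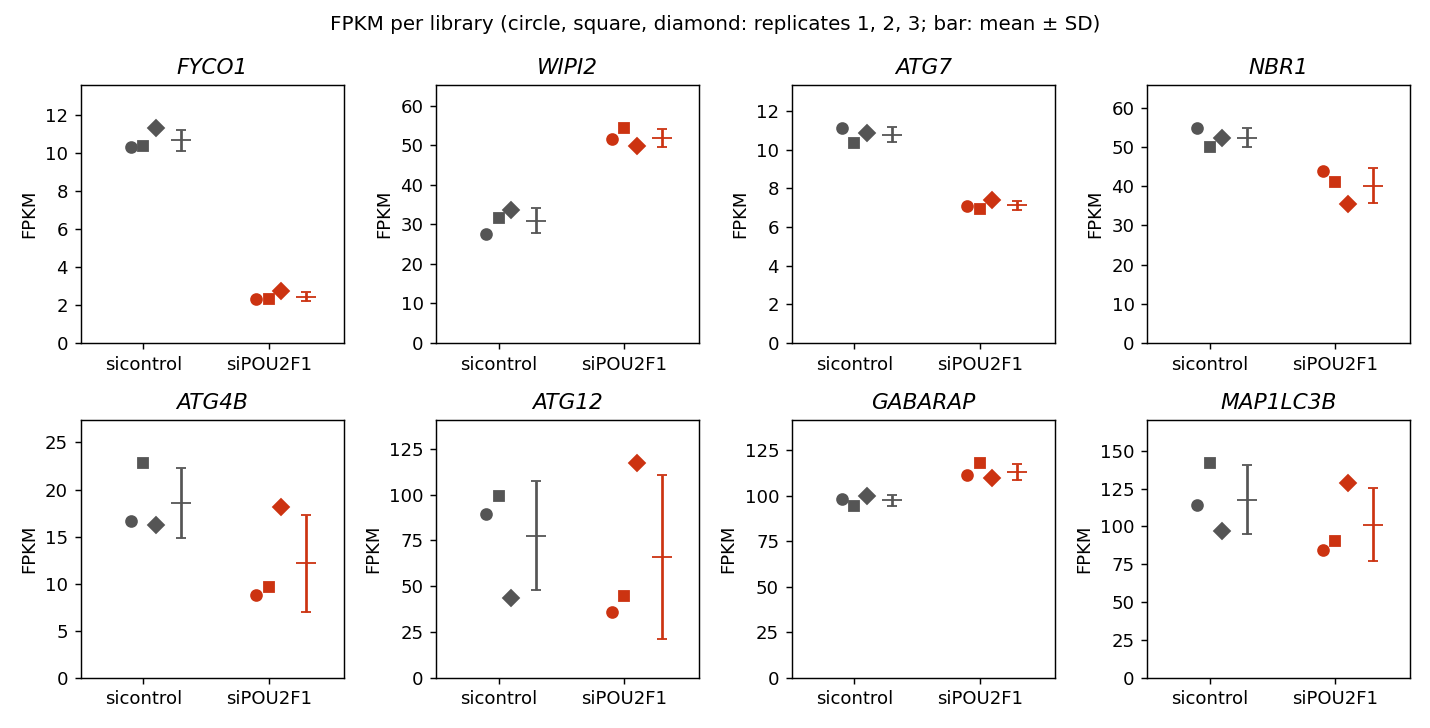
FPKM of 8 autophagy genes in each library, with sicontrol in grey and siPOU2F1 in red, circles, squares and diamonds for replicates 1, 2 and 3, and bars for the mean ± SD (n = 3). FYCO1, WIPI2, ATG7, NBR1 and GABARAP show groups that do not overlap, whereas in ATG4B, ATG12 and MAP1LC3B the siPOU2F1 replicate 3 diamond lies within or above the sicontrol range.

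Only FYCO1 was called lower among the 40 tested members, a share to set beside the 0.845% of all tested genes called lower, and nothing is read from it because FYCO1 was chosen on that contrast. Its call is therefore a description and not a test. It was lost in the fits without sicontrol replicate 1 or without siPOU2F1 replicate 1 or 2, each of which called 0 genes in all. WIPI2 was the 1 member called higher, against 0.397% of all tested genes. At an unadjusted p under 0.05 there were 3 members lower (FYCO1, ATG7 and NBR1; 7.5%, against 9.9% of all tested genes) and 2 higher (WIPI2 and GABARAP; 5.0%, against 8.22%), both shares below the background. Groups did not overlap for 6 members lower in siPOU2F1 (15.0%, against 12.0% of all tested genes) and for 4 members higher (10.0%, against 11.3%), both close to the background. The median log2 fold change of the tested members was -0.13, with 29 of 40 negative, beside a median of -0.01 and 51.5% negative over all tested genes.

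**Figure D2:**
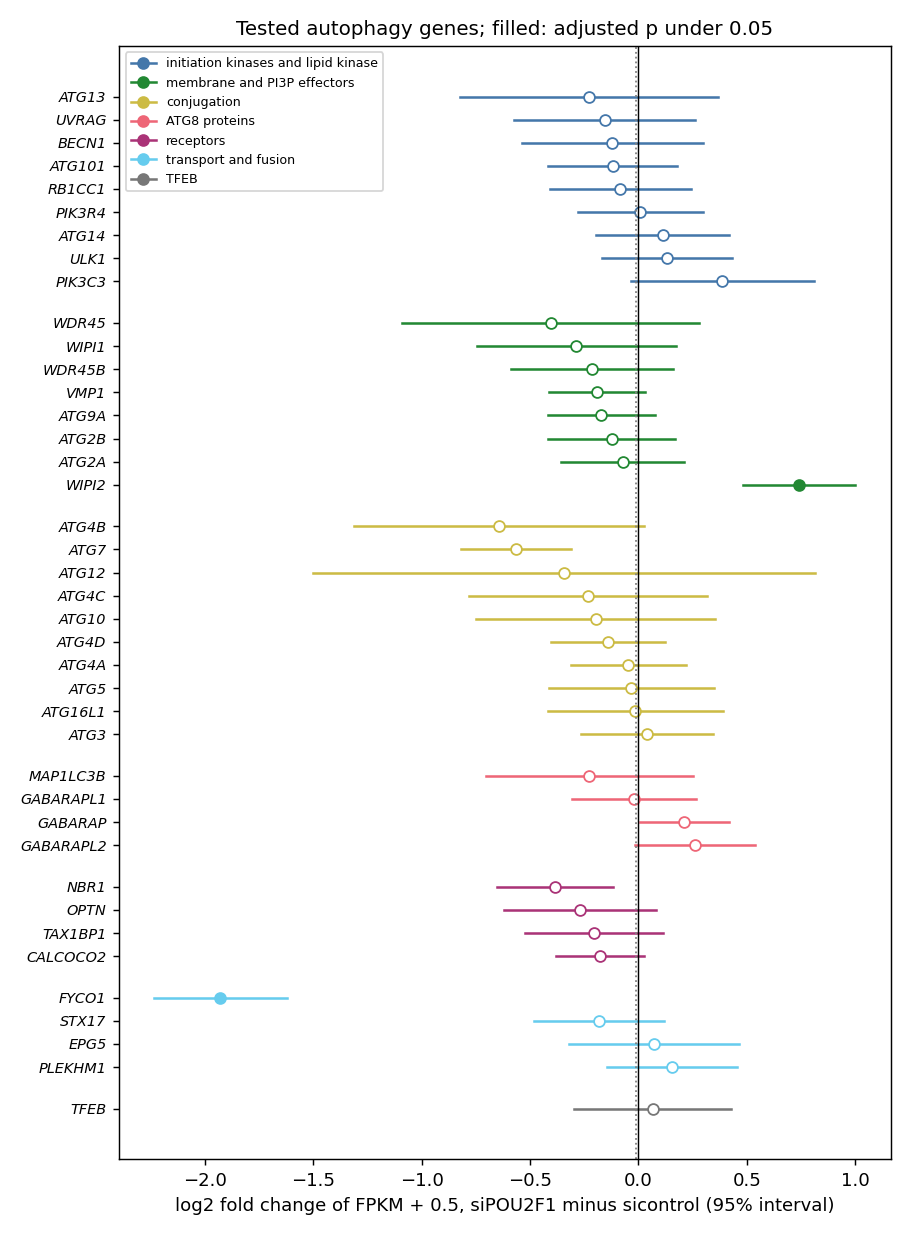
Log2 fold change (siPOU2F1 minus sicontrol, FPKM + 0.5) of the 40 tested members with 95% intervals from limma, in blocks by role, with filled points for an adjusted p under 0.05 and a dotted line at the median of all tested genes. FYCO1 at -1.93 and WIPI2 at 0.74 are the filled points, and ATG7 at -0.56 and NBR1 at -0.38 are the other intervals below 0. FYCO1 was chosen on this difference, so its fill is not a test.

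The start sites of both genes were examined because the knocked-down factor binds DNA at the octamer, spelled ATGCAAAT. The 200 bases upstream of each annotated start are shown (RefSeq, GRCh38.p14, 5′ to 3′ on the gene's strand), with the closest 8-base match to the octamer on either strand in capitals. The FYCO1 stretch lies at chr3:45995825-45996024 on the minus strand and that of WIPI2 at chr7:5189988-5190187 on the plus strand.
FYCO1: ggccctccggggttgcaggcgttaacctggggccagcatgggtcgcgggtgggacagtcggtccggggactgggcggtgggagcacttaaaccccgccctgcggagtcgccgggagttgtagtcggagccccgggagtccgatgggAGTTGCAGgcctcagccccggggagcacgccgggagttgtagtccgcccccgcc
WIPI2: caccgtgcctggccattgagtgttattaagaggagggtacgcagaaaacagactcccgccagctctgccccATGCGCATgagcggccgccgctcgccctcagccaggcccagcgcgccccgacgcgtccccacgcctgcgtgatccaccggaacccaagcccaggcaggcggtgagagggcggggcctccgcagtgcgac

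In each stretch the closest match shared 6 of 8 letters with the octamer. Both stretches are rich in G and C, at 72.0% for FYCO1 and 69.5% for WIPI2, with 19 and 20 CpG dinucleotides. The whole 300-base RefSeq window at the nearby start of WIPI2 holds 71.3% G and C with 35 CpG. RefSeq also gives a more distant start for each gene. The 300-base windows at these distant starts hold 50.0% G and C with 2 CpG for FYCO1 and 44.0% with 7 for WIPI2. Promoter windows of 300 bases (250 before and 50 after a start) were found for 35 of the 42 members, 44 windows in all, and none held a full octamer on either strand, compared with 172 of 9578 tested genes (1.80%). A match of at least 7 letters within the 250 bases before the start occurred in 5 of 35 members (14.3%) and in 11.9% of tested genes. These counts describe letters in short windows and say nothing about where the factor binds.

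The 9 tested genes of initiation showed no call in either direction, with log2 fold changes from -0.23 to 0.39 and a median of -0.08. PIK3C3 (ENSG00000078142; chromosome 18, 41955206 to 42087830, plus strand), the lipid kinase that makes PI3P, had the lowest p of them. It measured 1.70, 1.64 and 2.08 FPKM under sicontrol and 2.87, 2.67 and 2.04 FPKM under siPOU2F1. Replicates 1 and 2 of siPOU2F1 lay above all sicontrol libraries and replicate 3 within their range, and the log2 fold change of 0.39 (SE 0.18, limma, adjusted p = 0.307) was not called. ULK1, the kinase that starts the pathway, had 6.41, 6.87 and 5.51 FPKM against 6.71, 7.01 and 6.93 FPKM. These groups overlapped, and the 95% interval of its log2 difference ran from -0.17 to 0.43. ATG101, a partner of ATG13 in the ULK1 complex and the most abundant member of this class, had 78.5, 79.1 and 68.0 FPKM against 64.1, 64.3 and 79.9 FPKM. Its replicate 3 value in siPOU2F1 was the highest of the 6, and the interval ran from -0.42 to 0.18. ATG101 shares 42.7% of its exonic bases with AC025259.1 on the opposite strand, a gene without a deposited value.

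Among the remaining initiation genes ATG13 had a log2 fold change of -0.23, UVRAG -0.16, BECN1 -0.12, RB1CC1 -0.08, PIK3R4 0.01 and ATG14 0.11, with adjusted p from 0.627 to 0.972 (limma). Thus the scaffold subunits ATG13 and RB1CC1 and the lipid kinase partners BECN1, PIK3R4, ATG14 and UVRAG all had intervals that included 0. ATG13 and BECN1 were low in siPOU2F1 replicates 1 and 2 only. UVRAG, which takes the BECN1 complex to endosomes, was lowest in siPOU2F1 replicate 3 at 6.50 FPKM, and the other 5 libraries lay between 9.07 and 10.2 FPKM.

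In the class of membrane growth and PI3P effectors, WIPI2 was the 1 of 8 genes with a positive log2 fold change, and the other 7 ran from -0.41 to -0.07 without a call. Its relatives therefore gave values of the opposite sign. WIPI1, the closest family member, had 38.1, 36.7 and 32.0 FPKM in sicontrol and 26.7, 23.4 and 39.0 FPKM in siPOU2F1 (log2 fold change -0.29, SE 0.19, limma, adjusted p = 0.442). Replicates 1 and 2 of siPOU2F1 were below every sicontrol library and replicate 3 above them. The beta-propeller proteins WDR45 and WDR45B, the other relatives, had -0.41 (SE 0.29) and -0.21 (SE 0.16). WIPI1 shares 28.5% of its exonic bases with ARSG on the opposite strand and WDR45 shares 25.1% with PRAF2 on the same strand, so the assignment of reads is uncertain for both. The same holds for ATG9A, which shares 43.5% with AC068946.2 on the same strand (2.15 FPKM in sicontrol and 2.33 FPKM in siPOU2F1).

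VMP1, an endoplasmic reticulum scramblase and the most abundant gene of the set, measured 148, 136 and 157 FPKM in sicontrol and 125, 132 and 129 FPKM in siPOU2F1. ATG9A, the scramblase of the growing membrane, had 19.2, 18.4 and 17.4 FPKM against 15.4, 17.3 and 16.0 FPKM. In both genes the siPOU2F1 libraries lay below the sicontrol libraries without overlap, by a small margin, and neither was called (log2 fold changes -0.19 and -0.17, limma, adjusted p = 0.324 and 0.399). The lipid transfer proteins ATG2A and ATG2B had -0.07 and -0.12, with 95% intervals from -0.36 to 0.21 and from -0.42 to 0.17.

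Of the 10 conjugation genes 9 had a negative log2 fold change and none was called. ATG7, the E1-like enzyme that activates both ATG12 and the ATG8 proteins (ENSG00000197548; chromosome 3, 11272309 to 11557665, plus strand), came closest. Its values were 11.1, 10.3 and 10.9 FPKM under sicontrol and 7.10, 6.90 and 7.37 FPKM under siPOU2F1. The groups were tight and separate, replicate 3 included, with means of 10.8 ± 0.406 and 7.12 ± 0.235 FPKM (SD, n = 3 each), or 66.1% of the sicontrol mean. Its log2 difference of -0.56 (SE 0.11) had an adjusted p of 0.0635 (limma), just above the threshold of 0.05. The adjusted p was 0.0139 without siPOU2F1 replicate 3 and 0.155 to 0.300 without any 1 other library (limma). ATG7 shares 32.2% of its exonic bases with VGLL4 on the opposite strand (8.46 FPKM under sicontrol and 7.19 FPKM under siPOU2F1), and whether counting used the strand is not given in the sources used here.

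ATG4B, the main protease that trims ATG8 proteins and frees them from lipid, depended on the library. It had 16.6, 22.9 and 16.2 FPKM under sicontrol and 8.80, 9.59 and 18.1 FPKM under siPOU2F1. Replicates 1 and 2 lay well below all sicontrol libraries and replicate 3 in the middle of them. With all libraries the log2 fold change was -0.64 (SE 0.28, limma, adjusted p = 0.287), and without siPOU2F1 replicate 3 it was -0.96 (adjusted p = 0.0130). The other proteases showed smaller differences. ATG4D had 13.6, 12.6 and 11.8 FPKM against 10.9, 12.0 and 11.3 FPKM, with overlapping groups and a log2 fold change of -0.14, and ATG4A and ATG4C had -0.05 and -0.23.

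ATG12, the ubiquitin-like protein joined to ATG5, varied more within the groups than between them. The sicontrol libraries had 89.6, 99.4 and 43.6 FPKM and the siPOU2F1 libraries 36.0, 44.4 and 118 FPKM. The highest of the 6 libraries was siPOU2F1 replicate 3 and the lowest siPOU2F1 replicate 1, and the 95% interval of the log2 difference ran from -1.50 to 0.81. Over fits without 1 library the ATG12 difference ranged from -0.86 to -0.01. ATG5 (-0.03), ATG16L1 (-0.01) and the E2-like enzymes ATG3 (0.04) and ATG10 (-0.20) completed the class, with adjusted p from 0.654 to 0.965 (limma).

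ATG8 proteins were among the most abundant transcripts of the set, and none of the 4 tested was called. GABARAP measured 98.4, 94.3 and 100 FPKM in sicontrol and 112, 118 and 110 FPKM in siPOU2F1, and every siPOU2F1 library was the higher. GABARAPL2 likewise had 51.1, 43.8 and 50.7 FPKM against 61.6, 61.6 and 51.7 FPKM, with replicate 3 only just above the sicontrol range. Their adjusted p missed the threshold (log2 fold changes 0.21 with an SE of 0.09 and 0.26 with an SE of 0.12, limma, adjusted p = 0.259 and 0.298). MAP1LC3B, the LC3 protein most used as a marker of autophagosomes, had 114, 142 and 97.1 FPKM against 84.2, 90.3 and 129 FPKM. Its siPOU2F1 replicates 1 and 2 fell short of all sicontrol libraries while replicate 3 did not, and the log2 fold change was -0.23 (SE 0.20). GABARAPL1, with 140, 123 and 109 FPKM against 117, 115 and 132 FPKM, had overlapping groups and a difference of -0.02, with an interval from -0.31 to 0.27. The order of mean levels over all 6 libraries was GABARAPL1 (123 FPKM), MAP1LC3B (109), GABARAP (105), GABARAPL2 (53.4) and MAP1LC3A (0.207), and the first 3 overlapped one another. In siPOU2F1 alone the mean of GABARAP (113 FPKM) was above that of MAP1LC3B (101 FPKM). MAP1LC3B has a near-identical copy, MAP1LC3B2 (means 5.93 and 5.77 FPKM), so reads may be split between them. GABARAP shares 30.5% of its exonic bases with AC120057.2 on the same strand, listed at 0 FPKM in both groups. It also shares 25.2% with AC120057.3 on the opposite strand, a gene without a deposited value.

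All 4 receptors of the set had negative log2 fold changes, from -0.38 to -0.18, and none was called (1 lower at an unadjusted p under 0.05, limma). NBR1, which gathers ubiquitin-tagged cargo and peroxisomes (ENSG00000188554; chromosome 17, 43170481 to 43211689, plus strand), had 54.9, 49.9 and 52.3 FPKM in sicontrol and 44.0, 41.2 and 35.3 FPKM in siPOU2F1. Its groups did not overlap and replicate 3 was the lowest library, with a log2 fold change of -0.38 (SE 0.11, limma, adjusted p = 0.157). CALCOCO2, also called NDP52, a receptor for bacteria and mitochondria, had 54.3, 54.0 and 51.6 FPKM against 48.0, 47.2 and 46.0 FPKM, again without overlap (-0.18, adjusted p = 0.323). OPTN, a receptor that acts with the kinase TBK1, had 77.5, 85.8 and 63.8 FPKM against 58.8, 57.0 and 72.0 FPKM. TAX1BP1, a relative of CALCOCO2, had 130, 138 and 112 FPKM against 97.1, 106 and 126 FPKM. In OPTN and TAX1BP1 replicates 1 and 2 of siPOU2F1 were below all sicontrol libraries and replicate 3 was within their range, with log2 fold changes of -0.27 and -0.21.

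Apart from FYCO1, the genes of transport and fusion differed little. STX17, the SNARE of the closed autophagosome, had 15.2, 12.7 and 12.4 FPKM in sicontrol and 11.8, 10.9 and 12.6 FPKM in siPOU2F1, with replicate 3 inside the sicontrol range. PLEKHM1, which like FYCO1 binds RAB7 and ATG8 proteins, had 4.26, 4.37 and 4.41 FPKM against 4.81, 5.36 and 4.53 FPKM, so each siPOU2F1 library was slightly higher. EPG5, a tether for fusion with the lysosome, had 2.07, 2.06 and 2.21 FPKM against 2.58, 2.39 and 1.83 FPKM. Their log2 fold changes were -0.18, 0.15 and 0.07, and their 95% intervals ran from -0.48 to 0.12, from -0.15 to 0.45 and from -0.32 to 0.47. TFEB, a transcription factor of lysosome and autophagy genes, had 2.32, 2.72 and 2.56 FPKM against 2.43, 2.56 and 3.07 FPKM, with overlapping groups and a log2 fold change of 0.07.

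In many members siPOU2F1 replicate 3 differed from the other siPOU2F1 libraries. In 17 of 40 tested members siPOU2F1 replicates 1 and 2 both lay below all sicontrol libraries (42.5%, against 35.0% of all tested genes), and in 11 of these replicate 3 did not. The 11 were ATG13, ATG101, BECN1, WIPI1, ATG2B, ATG4B, ATG10, MAP1LC3B, OPTN, TAX1BP1 and STX17. The same pattern occurred in 2722 of 11831 tested genes (23.0%), a share near the 27.5% of the members. In the other direction replicates 1 and 2 both lay above all sicontrol libraries in 7 members (17.5%, against 27.6%), and in 3 of these replicate 3 did not (7.5%, against 16.2%). The 6 for which replicate 3 was low as well were FYCO1, ATG7, NBR1, CALCOCO2, ATG9A and VMP1. Relative to the sicontrol mean, the median log2 value of the tested members was -0.17, -0.15 and 0.01 in siPOU2F1 replicates 1 to 3, and that of all tested genes was -0.04, -0.03 and 0.04. Without siPOU2F1 replicate 3, 4 members were called lower (FYCO1, ATG7, ATG4B and WIPI1), or 10.0% of 40, while 15.8% of all genes tested were called lower in that fit. WIPI2 remained the 1 member called higher, where 9.48% of all genes tested were. In that fit neither share of the members exceeded the background.

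**Figure D3:**
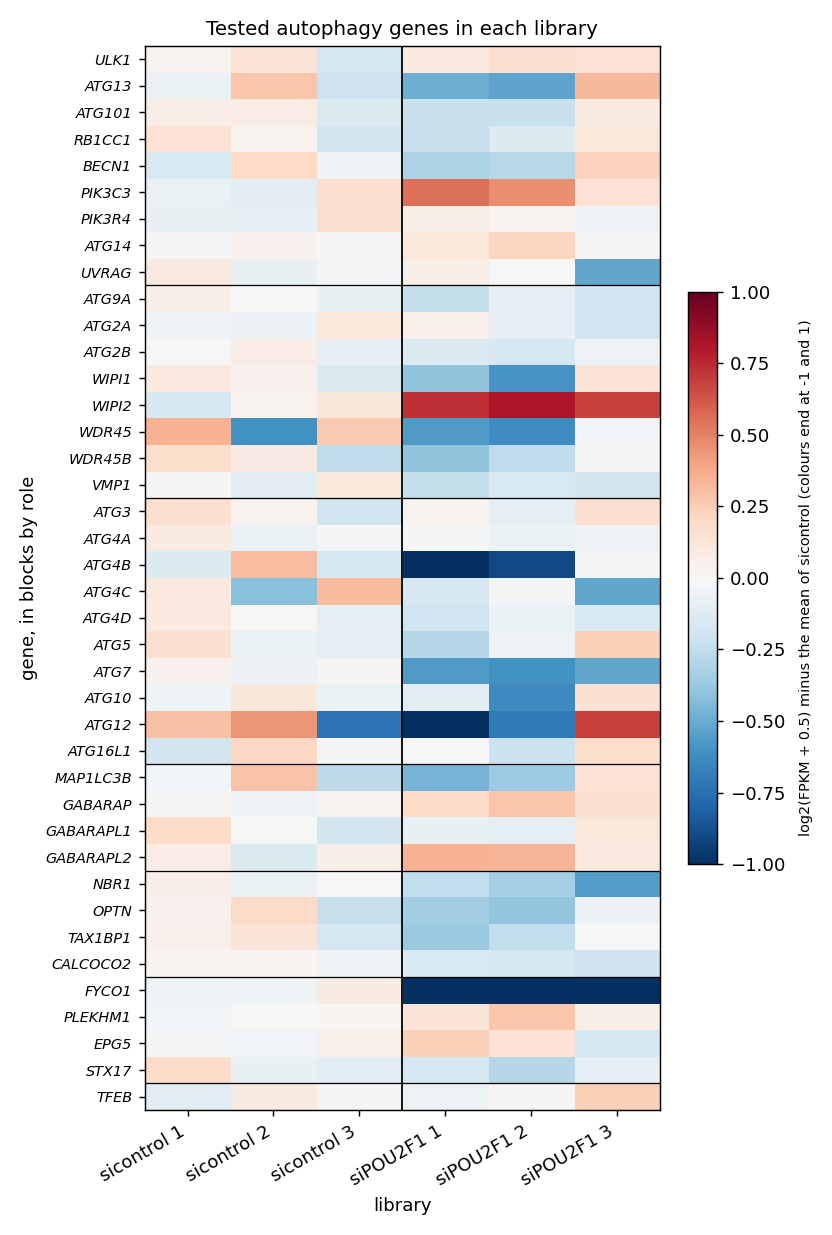
Log2(FPKM + 0.5) of each tested member in each library minus its sicontrol mean, with blue for lower and red for higher values, colours ending at -1 and 1, and lines between the roles. FYCO1 is blue and WIPI2 red in all 3 siPOU2F1 libraries, while ATG4B, ATG13 and ATG12 are blue in siPOU2F1 replicates 1 and 2 and pale or red in replicate 3.

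The 3′ UTRs of the members were searched for 2 words of 7 bases, AACTGCA and AGAATGA, that earlier work on these libraries had found often among genes that fell. Both had been picked by how genes changed here, so their counts are a description. AGAATGA occurred in 4 of 39 tested members with a 3′ UTR of at least 20 bases (10.3%), below its share of all tested genes (14.9%), and in 35 of the 99 genes called lower (35.4%). Its holders were WIPI2, which rose, and ATG2B, VMP1 and WDR45B. AACTGCA occurred in 9 of the 39 members (23.1%), in 12.4% of 11518 tested genes and in 51 of the 99 called lower with such a 3′ UTR (51.5%). Members had longer 3′ UTRs than all tested genes, with a median of 1326 bases against 995. The 99 genes called lower had longer ones still, with a median of 1594 bases, and the part of length in these shares was not tested. FYCO1 has a 3′ UTR of 3866 bases in the transcript used (GENCODE 29, longest coding sequence) and held 0 copies of either word, and WIPI2 held 0 copies of AACTGCA. Sites of AACTGCA are shown for ATG7, NBR1 and VMP1, the members that held the word and were lower in every siPOU2F1 library, and for ATG14, which held it and was not lower. Each is 29 bases, 5′ to 3′ on the gene's strand, with the word in capitals.
ATG7: cctggcgctgaAACTGCAcacgtacacta
NBR1: accaggattcaAACTGCAagccagccagg
VMP1: agaaagttttaAACTGCAgaaattggagt
ATG14: ttatttttaatAACTGCAaaaaaatccta

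AACTGCA lies at chr3:11556049-11556055 in exon 19 of 19 of ATG7, at chr17:43211464-43211470 in exon 21 of 21 of NBR1, at chr17:59839927-59839933 in exon 12 of 12 of VMP1 and at chr14:55368095-55368101 in exon 10 of 10 of ATG14. The first 3 genes are on the plus strand and ATG14 is on the minus strand. Tested members with the word had a median log2 fold change of -0.19, with 8 of 9 negative. Those without it had a median of -0.10, with 21 of 30 negative, and included FYCO1. The members with the word also had longer 3′ UTRs (median 1668 bases against 1012), and the part of length was not tested. The other holders among tested members were ATG4C, STX17, UVRAG, ATG2B and WDR45.

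Further genes of the pathway, listed by function, were examined beside the members. Of 142 genes in 5 lists 132 were tested, 1 was called lower (0.758%) and none higher (limma). At an unadjusted p under 0.05 there were 11 lower (8.33%, against 9.9% of all tested genes) and 25 higher (18.9%, against 8.22%), and the shares of all tested genes apply to each list below. VAMP7 stands in the tables under a pair of gene IDs and was counted once, under the first. The 1 called gene was ATL3, an endoplasmic reticulum atlastin that also serves as a receptor for autophagy of that organelle. It had 16.8, 20.9 and 17.4 FPKM in sicontrol and 2.56, 3.13 and 5.16 FPKM in siPOU2F1, low in all 3 libraries, and had been known to fall when the list was made. Its call (log2 fold change -2.24, adjusted p = 0.0150, limma) is therefore a description. It was lost without any 1 library other than siPOU2F1 replicate 3, in fits that called 0 to 9 genes in all. RETREG2, a further receptor for that organelle, differed by 0.43 on the log2 scale (limma, adjusted p = 0.136) and was higher in every siPOU2F1 library. The receptors of this list went both ways (21 tested, 10 positive, median -0.03; 2 lower and 2 higher at an unadjusted p under 0.05, limma). SQSTM1, also called p62, a receptor for ubiquitin-tagged cargo, was named after its values were seen. It had 133, 152 and 158 FPKM in sicontrol and 249, 183 and 186 FPKM in siPOU2F1, higher in every siPOU2F1 library and not called (0.47, SE 0.15, limma, adjusted p = 0.173). SQSTM1 shares 39.8% of its exonic bases with MRNIP on the opposite strand (17.2 FPKM in sicontrol and 15.5 FPKM in siPOU2F1).

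The 40 lysosomal genes, all tested, had the highest list median, 0.15, with 26 of 40 positive and 13 (32.5%) higher in every siPOU2F1 library, where 11.3% of all tested genes were. None was called (limma; at an unadjusted p under 0.05 9 were higher, 22.5%, and 2 lower, 5.0%). ATP6V1G1 and ATP6V1F, subunits of the proton pump that acidifies the lysosome, had the lowest p. ATP6V1G1 had 47.4, 47.3 and 52.6 FPKM in sicontrol and 67.3, 71.7 and 71.1 FPKM in siPOU2F1 (log2 fold change 0.51, SE 0.09, adjusted p = 0.0607). ATP6V1F had 77.1, 73.1 and 80.6 FPKM against 111, 119 and 102 FPKM (0.52, SE 0.10, adjusted p = 0.0631). Both were higher in every siPOU2F1 library and missed the threshold. In ATP6V1G1 the adjusted p passed it when only genes of at least 5 FPKM were tested.

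In the list of upstream control (mTORC1, AMPK and their regulators) 30 of 32 genes were tested, none was called (limma) and the median was 0.06. There were 8 higher at an unadjusted p under 0.05 (26.7%, against 8.22% of all tested genes, limma) and 1 lower (3.33%, against 9.9%). As in the lysosomal list, many were higher in every siPOU2F1 library (8 genes, 26.7%, against 11.3% of all tested genes). MTOR was the 1 gene lower in every siPOU2F1 library (3.33%, against 12.0% of all tested genes). It had 9.26, 11.7 and 9.38 FPKM in sicontrol and 6.17, 5.59 and 9.14 FPKM in siPOU2F1 (log2 fold change -0.53, limma, adjusted p = 0.235). FLCN, a regulator of the lysosomal RAG GTPases, had 10.3, 11.9 and 10.4 FPKM against 17.2, 16.8 and 14.0 FPKM, and RRAGC, one of those GTPases, 13.8, 14.1 and 13.4 FPKM against 19.7, 17.8 and 15.8 FPKM. Both were higher in every siPOU2F1 library, with adjusted p of 0.109 and 0.19 (limma). RRAGC shares 43.3% of its exonic bases with AL139260.2 on the same strand, a gene without a deposited value. Motor and fusion genes (28 tested, none called, 4 lower, 14.3%, and 5 higher, 17.9%, at an unadjusted p under 0.05, limma) had a median of 0.01. DYNC1H1, the heavy chain of the dynein motor that carries autophagosomes inward, had 38.6, 41.9 and 41.2 FPKM against 31.5, 28.5 and 29.3 FPKM (-0.44, adjusted p = 0.0847). MAPK8IP1, also called JIP1, a motor scaffold that binds LC3, had 1.34, 0.742 and 1.58 FPKM against 3.61, 3.69 and 2.17 FPKM (1.09, adjusted p = 0.115). Neither was called, and in both the groups did not overlap.

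Of 13 tested further core genes none was called (2 lower and 1 higher at an unadjusted p under 0.05, limma), and PIK3C2A (-0.33) and TP53INP1 (-0.57) had the lowest p. Without siPOU2F1 replicate 3 the pathway genes called were 12 of 131 lower (9.16%, against 15.8% of all genes tested) and 20 higher (15.3%, against 9.48%; limma), and no list was compared with other genes beyond these counts.

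**Figure D4:**
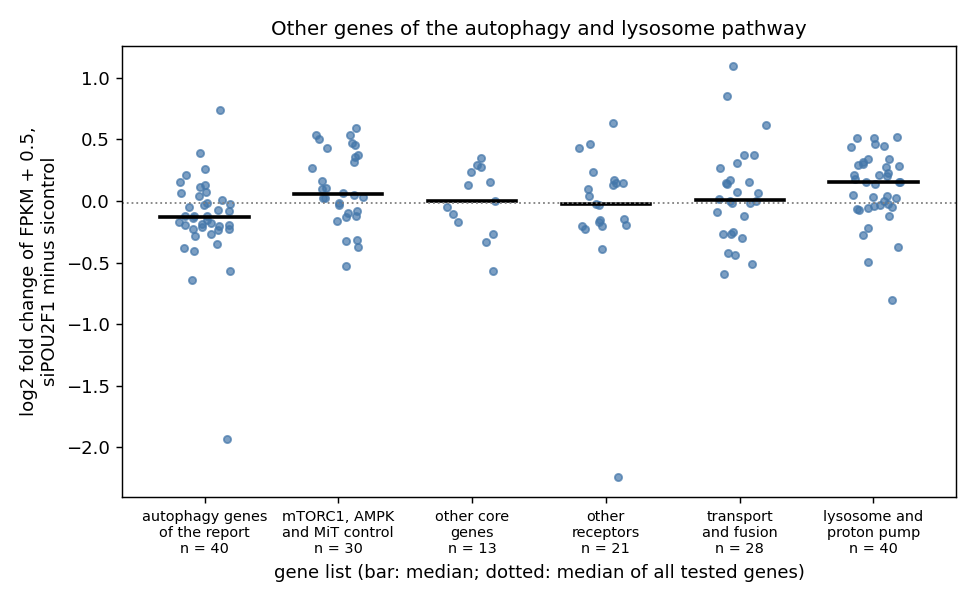
Log2 fold change (siPOU2F1 minus sicontrol, FPKM + 0.5) of each tested gene in the set described here and in 5 further lists, with bars for medians and a dotted line at the median of all tested genes. The medians lie between -0.13 (the autophagy genes) and 0.15 (lysosome and proton pump), and the lowest points are FYCO1 in the first column and ATL3 among the other receptors.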

How the data were processed

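The authors deposited FPKM values, a table for each library, with the unit per the file names, and these were used as they stand. Per the submitters' processing notes the tools were HISAT2 (2.0.4), Bowtie2 (2.2.5) and StringTie (2.1.2), on hg38, with no role given. No source used here names the annotation release, filters or strand setting. Of 22782 features 20474 were annotated genes. Those averaging 1 FPKM or more, 11831 genes, entered a limma fit (3.58.1, R 4.3.3) of log2(FPKM + 0.5) on group, moderated with a variance trend, and p-values were adjusted by Benjamini-Hochberg over all of them. The procedure was tested on simulated data. Absolute depth is unknown.

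Values in every library are given for FYCO1, called members and the most abundant member of each role. They are also given for the 3 members of each role with the lowest p (all of a role with 5 or fewer). WIPI1, SQSTM1 and MTOR were added after their values were seen. From each further list called genes and the 2 lowest p are named. The members and lists were chosen with earlier results of these data known. Gene positions, 3′ UTRs and exonic overlaps came from GENCODE 29 (GRCh38, the same build as hg38), and promoter windows from RefSeq (GRCh38.p14). The printed upstream stretches end at the start of the GENCODE 29 transcript. Only some exonic overlaps are named, so a gene without a named overlap may still have one. Alternatives covered the pseudocount, the filter, normalization, library weights, a replicate block, the trend and each library left out. Python 3.11.15 with pandas 2.3.3 was used.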

Additional observations from a re-analysis of the deposited data

How the results depend on the processing

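FYCO1 kept a log2 fold change between -1.998 and -1.89 in every fit that left out 1 library. Its call, which is a description and not a test, was lost without replicate 1 of either group or replicate 2 of siPOU2F1. Those fits called 0 genes in all. POU2F1 lay between -1.06 and -0.95 over the 6 fits that left out 1 library. The POU2F1 call held in 1 of these 6, the one without siPOU2F1 replicate 3, and was lost in the other 5 (adjusted p = 0.114 to 0.222, limma). Its value of -0.99 also missed the threshold with no filter on low values. With the replicate number as a block, 0 of 11831 tested genes were called. POU2F1 (-0.99) and FYCO1 (-1.93) therefore missed the threshold, and 0 members and 0 pathway genes were called lower and 0 members higher. No label says whether same-numbered libraries were paired. Their deviations from the group means correlated at r = 0.13, -0.54 and -0.51 for numbers 1 to 3. Deviations within a group of 3 sum to 0, so these values cannot settle whether the block fits the design. The members called higher were 0 with no filter and 0 without the variance trend, fits that called 72 of 17365 and 93 of 11831 genes. With library weights, which gave siPOU2F1 replicate 3 a weight of 0.145, 17 members were called lower and 5 higher, and 25 pathway genes lower and 44 higher, with 5963 of all genes called. A filter at 5 FPKM gave 1 pathway gene higher, with 193 of 8695 genes called. Leaving out 1 library gave 0 to 4 members lower, 0 to 1 members higher, 0 to 12 pathway genes lower and 0 to 20 higher. Over all tested genes the fits without sicontrol replicates 1, 2 and 3 called 0, 5 and 9. Those without siPOU2F1 replicate 1 or 2 called 0, and 2990 were called without siPOU2F1 replicate 3. The members' median of -0.13 lay between -0.16 and -0.07 in the fits that left out 1 library. GABARAPL1 (-0.11 to 0.070, with 0.0061 and 0.014 without siPOU2F1 replicate 1 or 2), EPG5 (-0.0099 to 0.19) and TFEB (-0.019 to 0.12) changed sign among them. The cause of these changes was not tested.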
